A study of Mus musculus with 14 samples.

Results

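The genes described here are those of the Reactome cilium assembly set in the gene set collection deposited with the study. Genes shared with the Hallmark mitotic spindle and E2F target sets were left out, as were chaperonin and heat shock genes, since they also serve cell division and protein folding at large. Of 198 genes in the set, 187 were in the count table and 11 were not analysed here. The exclusions removed 41 of the 187, of which 29 were mitotic spindle genes, 6 were E2F targets (2 belonged to both) and 8 were chaperonin or heat shock genes, leaving 146 genes of 19525. The exclusions also took out known cilium genes, among them *Kif3b*, *Kifap3*, *Pcnt*, *Pcm1* and *Ccp110*. The 30 genes of intraflagellar transport (IFT) and the 8 genes of the BBSome are given apart from the other 108.

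The primary cilium is an antenna-like projection built on a centriole, around a core of microtubules called the axoneme. Its parts are carried by IFT trains: the IFT-B complex travels outward with kinesin-2 motors and the IFT-A complex returns with the dynein-2 motor. The BBSome is a coat-like complex that moves membrane receptors along the cilium. A gate at its base, the transition zone, controls which proteins enter, and distal appendages anchor the centriole to the membrane. Hedgehog signaling in mammals is read out through the cilium. Dividing cells take their cilia down before mitosis, and many breast cancer cell lines carry few of them. No cilium was counted in these data, which hold RNA levels only.

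RNA was sequenced from tumor spheroids of 4T1, a mouse triple-negative breast cancer cell line, kept in lung-like medium over 5 days. All cells carried a lentiviral pLKO hairpin and were selected with puromycin as polyclonal lines. The non-targeting control hairpin was studied in medium with 700 µM aspartate in 4 libraries (ASP shSCR) and in medium not supplemented with it in 3 (NoASP shSCR). The other lines received 700 µM aspartate throughout: ASP shGRIN2D (3 libraries), against the NMDA receptor subunit gene *Grin2d*, and ASP shDHPS (4 libraries), against *Dhps*, whose enzyme starts the hypusination of eIF5A. No hairpin effect could be measured without aspartate, and each target had 1 hairpin line here. The RNA came from cytosolic lysates, so what each gene shows is its cytosolic RNA. Fewer cells expressing a gene and less RNA per cell cannot be told apart.

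The 14 libraries held between 12731123 and 23231378 counts. Levels are given as CPM, counts for every 1000000 in the library after TMM scaling, and differences as log2 fold changes with their standard errors. A gene was called when its Benjamini-Hochberg adjusted p over all 19525 genes was under 0.05 in the edgeR quasi-likelihood test. *Dhps* was lower in ASP shDHPS (6.93 ± 1.74 CPM, SD, n = 4) than in ASP shSCR (19.4 ± 2.28 CPM, SD, n = 4). *Grin2d* was low throughout, with 2.46 ± 0.590 CPM in ASP shGRIN2D (SD, n = 3) and 3.598 ± 0.423 CPM in ASP shSCR (SD, n = 4), a difference that did not pass the threshold (log2 fold change -0.55, adjusted p = 0.516). The 8 markers of 4T1 epithelium were all abundant, at mean levels of 75.7 to 1546 CPM, although their summed level was lower in ASP shGRIN2D (3858 to 4155 CPM) and ASP shDHPS (4036 to 4739 CPM) than in ASP shSCR (5182 to 5287 CPM). The multiciliated cell markers, 3 of 5 in the table, summed to at most 1.336 CPM in any library, and leukocyte markers (3 of 7) to at most 0.972 CPM. Endothelial markers (3 of 4, mainly *Tie1*) summed to 1.45 to 2.45 CPM in ASP shSCR and, without overlap, to 2.58 to 3.33 CPM in ASP shGRIN2D and 2.86 to 5.36 CPM in ASP shDHPS. Fibroblast markers (2 of 5, mainly *Pdgfra*) overlapped between these groups (22.7 to 40.7 CPM). The part of these markers in the results was not tested. Replicate 2 of both shSCR groups stood apart from the other libraries on the first principal component (-45.8 for ASP shSCR and -33.5 for NoASP shSCR). The ASP shDHPS libraries lay at its other end (21.1 to 37.4), and the remaining libraries between (-14.8 to 9.37). For ASP shDHPS, the counts of called cilium assembly genes and their median are therefore given with and without ASP shSCR replicate 2. Medians and unadjusted counts of roles and gene lists are given with it only.

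Most of the genes were well measured. Mean levels reached 1 CPM or more for 138 of the 146 and 5 CPM or more for 129, and the median was 22.1 CPM. Only 8 stayed under 30 counts in every library, among them *Kif17*, *Tuba8*, *Cnga4*, *Cngb1*, *Mks1*, *Tubb3* and *Dynlt2a1*. The channel subunits *Cnga4* and *Cngb1* serve the cilia of sensory cells.

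Sequences in front of the genes were examined because many cilium genes are known to be driven by RFX transcription factors, which bind a palindromic motif called the X-box. Of the 146 genes, 123 matched an entry among RefSeq promoters (GRCm38.p6, 250 bases before to 50 after the start of the gene). The X-box was searched as GTTNCC, then 0 to 3 bases, then GGNAAC, which reads the same on both strands. It was found for 11 of the 123 genes (8.94%), against 253 of 27025 genes with any promoter entry (0.936%) and 124 of 12116 such genes in the count table (1.02%). A match is a description of the letters and does not show that a factor binds there. The windows are printed 5′ to 3′ on the strand of the gene with the X-box in capitals, because the motif is what these 11 genes share beyond the set.
*Ahi1* (chr10:20952560-20952589, + strand): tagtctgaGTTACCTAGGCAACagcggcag
*Bbs7* (chr3:36613489-36613518, - strand): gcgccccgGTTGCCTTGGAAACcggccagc
*Cep41* (chr6:30693858-30693888, - strand): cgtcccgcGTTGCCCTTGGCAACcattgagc
*Dctn3* (chr4:41723284-41723313, - strand): cccagaacGTTACCTAGGTAACcagattgc
*Ift57* (chr16:49699226-49699254, + strand): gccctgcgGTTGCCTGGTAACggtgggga
*Lztfl1* (chr9:123717767-123717797, - strand): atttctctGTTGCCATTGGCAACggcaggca
*Mks1* (chr11:87853183-87853212, + strand): gcgtctccGTTGCCAGGGGAACgaggcacc
*Rab3ip* (chr10:116950615-116950644, - strand): ccagagtgGTTCCCAGGGAAACcgctgtag
*Tctn1* (chr5:122264411-122264432, - strand): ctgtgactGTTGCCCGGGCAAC
*Tctn3* (chr19:40612351-40612379, - strand): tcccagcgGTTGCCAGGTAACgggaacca
*Ttc26* (chr6:38381483-38381512, + strand): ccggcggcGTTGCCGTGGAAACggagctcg
The list holds *Ift57* and *Ttc26* of IFT-B, *Bbs7* of the BBSome with its regulator *Lztfl1*, *Ahi1*, *Mks1*, *Tctn1* and *Tctn3* of the transition zone, and *Rab3ip*, which activates the trafficking GTPase Rab8.

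A second motif, the cAMP response element TGACGTCA that CREB family factors bind, was searched because the study follows CREB activity. It also reads the same on both strands. It stood in the promoters of 7 of the 123 genes (5.69%), against 2.03% of all genes with an entry and 3.34% of those in the count table. The 7 were *Dctn3*, *Haus5*, *Ift57*, *Kif17*, *Mkks*, *Rab11fip3* and *Tubb2a*. Of these, *Dctn3* and *Ift57* also hold an X-box, and *Ift57* was called in no comparison. The promoter of *Dctn3*, a dynactin subunit that rose in ASP shDHPS, is printed whole because it holds both motifs and the gene was called (GRCm38.p6, chr4:41723114-41723413, - strand). The X-box comes first and the cAMP response element second, both in capitals.
*Dctn3*: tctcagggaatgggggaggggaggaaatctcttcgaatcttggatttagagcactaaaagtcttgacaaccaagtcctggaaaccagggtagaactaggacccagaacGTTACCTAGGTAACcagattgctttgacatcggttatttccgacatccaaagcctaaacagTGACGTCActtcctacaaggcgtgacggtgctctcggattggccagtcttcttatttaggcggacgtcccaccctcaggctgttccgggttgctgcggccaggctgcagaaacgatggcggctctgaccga

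Levels between genes are compared as CPM per kilobase of the longest coding transcript (CPM per kb). Tubulins led the whole set, with *Tuba1b* at 682 CPM per kb, though reads of near-identical tubulin genes cannot be assigned with certainty. Among IFT genes the dynein light chains *Dynll1* (158 CPM per kb) and *Dynlrb1* (116 CPM per kb) were highest. Both also serve cytoplasmic dynein and are not particular to cilia. The next were *Ift43* of IFT-A (29.9 CPM per kb) and *Ift20* of IFT-B (20.5 CPM per kb), the latter known also for its place at the Golgi. The other IFT-B genes lay between 1.56 CPM per kb (*Ttc30b*) and 15.9 CPM per kb (*Ift52*), and the other IFT-A genes between 1.79 CPM per kb (*Wdr19*) and 6.21 CPM per kb (*Ttc21b*). The dynein-2 heavy chain *Dync2h1* measured 0.975 CPM per kb, low beside its intermediate chains *Dync2i1* (10.5 CPM per kb) and *Dync2i2* (13.6 CPM per kb). *Kif3a*, a subunit of the kinesin-2 that drives outward transport, measured 10.6 CPM per kb, while *Kif17*, a second kinesin-2, was close to absent at 0.124 CPM per kb (2 to 25 counts). In the BBSome, *Ttc8* was highest (15.8 CPM per kb) and *Bbs1* lowest (1.29 CPM per kb), with *Bbs2*, *Bbs4*, *Bbs5*, *Bbs7*, *Bbs9* and *Bbip1* between 2.01 and 7.445 CPM per kb. Outside transport, transition zone genes had a median of 3.05 CPM per kb and centriole and distal appendage genes of 6.003 CPM per kb. *Smo*, the Hedgehog transducer that enters the cilium, measured 45.8 CPM per kb.

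To ask whether aspartate changed the cilium program, ASP shSCR was compared with NoASP shSCR. None of the 146 genes was called (edgeR quasi-likelihood test; 0 of 19525 genes, 0%), nor was any by the DESeq2 Wald test. At an unadjusted p under 0.05, 0 were higher and 2 were lower, *Dynlt2a1* and *Cngb1*. *Cngb1* had at most 4 counts in any library. *Dynlt2a1*, a dynein light chain gene, had 0 counts in every ASP shSCR library and 20 over the NoASP shSCR libraries. Its reads are shared with the near-identical *Dynlt2a2*, and the summed counts of both genes gave a log2 fold change of -0.66 (SE 0.34, adjusted p = 1). The median log2 fold change was 0.01 over the 146 genes and 0.00087 over all genes.

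The 3 remaining genes of smallest p were *Bbip1*, *Ift74* and *Arl3*. *Bbip1*, the smallest BBSome subunit, measured 18.3, 13.8, 13.9 and 15.3 CPM in ASP shSCR and 13.5, 12.5 and 13.3 CPM in NoASP shSCR, groups that did not overlap but lay close (log2 fold change 0.23, SE 0.13, adjusted p = 1). *Ift74*, which pairs with *Ift81* to carry tubulin, lay at 0.21 (SE 0.12, adjusted p = 1), and *Arl3*, the GTPase that releases lipidated cargo in the cilium, at 0.23 (SE 0.13, adjusted p = 1). Of the 30 IFT genes, 23 had a log2 fold change above 0, with a median of 0.06. Replicate 2 weighed on this comparison, since the median of the 146 genes was 0.06 without NoASP shSCR replicate 2.

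**Figure D1:**
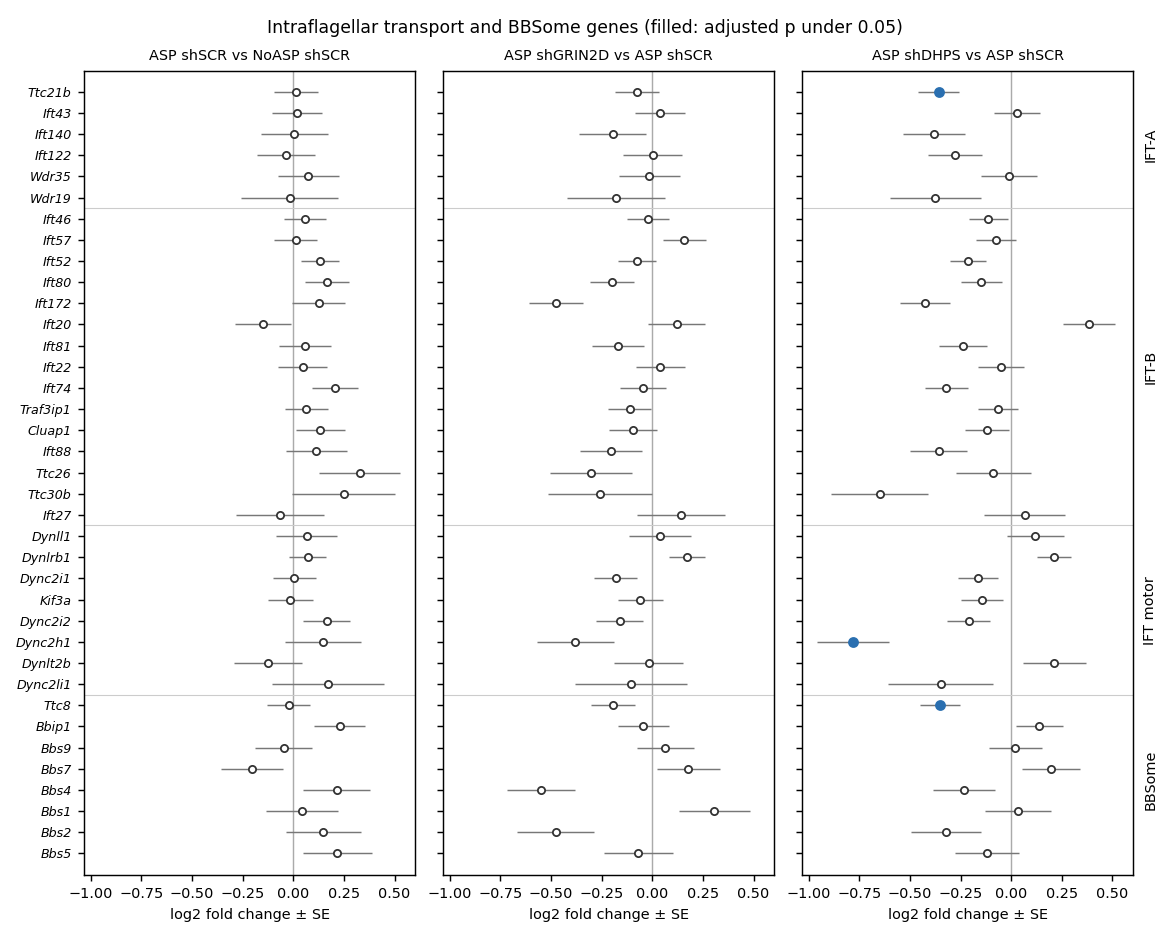
Log2 fold change with its standard error for the 37 IFT and BBSome genes above a mean of 1 CPM, in 3 comparisons (columns), grouped by complex and ordered by mean CPM. Filled points are called genes (*Ttc21b*, *Dync2h1* and *Ttc8* in ASP shDHPS), and in ASP shDHPS most points lie left of 0.

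The *Grin2d* hairpin changed few of the genes. In ASP shGRIN2D against ASP shSCR, 1 of 146 was called (0.685%), where 1.16% of all genes were called and 0.732% were called lower. This was *Cep78* (ENSMUSG00000041491), a centriole protein whose loss in humans causes retinal degeneration with hearing loss. *Cep78* measured 10.8, 10.2, 10.6 and 10.6 CPM in ASP shSCR and 6.03, 8.16 and 6.20 CPM in ASP shGRIN2D. The ASP shSCR libraries were nearly alike and the groups did not overlap. The ASP shDHPS libraries (8.46, 8.39, 9.45 and 10.9 CPM) reached into the range of the controls. The log2 fold change was -0.63 (SE 0.15, adjusted p = 0.0434). The call was narrow. With one library left out at a time *Cep78* was called in 1 of 7 fits (adjusted p from 0.0334 without ASP shGRIN2D replicate 2 to 0.271 without ASP shGRIN2D replicate 1).

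The 4 genes next in order did not pass the threshold, and each lay lower in every ASP shGRIN2D library than in every ASP shSCR library. *Ywhag*, a 14-3-3 adaptor protein, measured 566, 475, 574 and 552 CPM in ASP shSCR and 425, 381 and 427 CPM in ASP shGRIN2D (log2 fold change -0.40, SE 0.10, adjusted p = 0.0623). *Cep135*, a centriole scaffold, lay at -0.52 (SE 0.13, adjusted p = 0.0641), and *Rp2*, which switches off the GTPase ARL3, at -0.45 (SE 0.12, adjusted p = 0.0701). *Ift172*, a peripheral IFT-B subunit, measured 30.7, 33.4, 22.9 and 26.3 CPM in ASP shSCR and 20.3, 20.96 and 19.9 CPM in ASP shGRIN2D (log2 fold change -0.48, SE 0.13, adjusted p = 0.105). Over the 146 genes, 18 were lower and 5 higher at an unadjusted p under 0.05, where 1130 and 910 of 19525 genes were. Among genes of 5 CPM or more, 18 of 129 were lower, against 827 of 10224 in the whole table. Of the 146, 92 had a log2 fold change below 0 with a median of -0.06, against 0.00 over all genes. None of the 38 IFT and BBSome genes was called (edgeR quasi-likelihood test). At an unadjusted p under 0.05, 3 were lower (*Ift172*, *Bbs4* and *Bbs2*), and the DESeq2 Wald test called 1. *Bbs4*, a BBSome subunit that binds pericentriolar proteins, measured 8.88, 8.69, 8.58 and 11.8 CPM in ASP shSCR and 5.97, 7.05 and 6.33 CPM in ASP shGRIN2D (log2 fold change -0.55, SE 0.17, adjusted p = 0.149).

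Of the centriole and distal appendage genes, 20 of 27 lay below 0 in ASP shGRIN2D. Their median log2 fold change was -0.12, the same to this precision as that of the 10 tubulins, and 7 were lower and 0 higher at an unadjusted p under 0.05. Besides *Cep78* and *Cep135* these were *Haus1* and *Haus8* of the augmin complex, *Sclt1* and *Cep89* of the distal appendages, and *Cep41*, which guides tubulin glutamylation, all named after their values were seen. Among all genes of 5 CPM or more, 827 of 10224 were lower and 546 higher at an unadjusted p under 0.05. The genes of the role with the highest CPM gave log2 fold changes of -0.06 for *Fbf1* and -0.10 for *Cep164*, neither called. The summed level of 15 proliferation markers was also lower in ASP shGRIN2D (3120 to 3280 CPM) than in ASP shSCR (3526 to 3778 CPM), without overlap, and many centriole genes vary with the cell cycle. The part of cell division in these values was not tested.

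**Figure D2:**
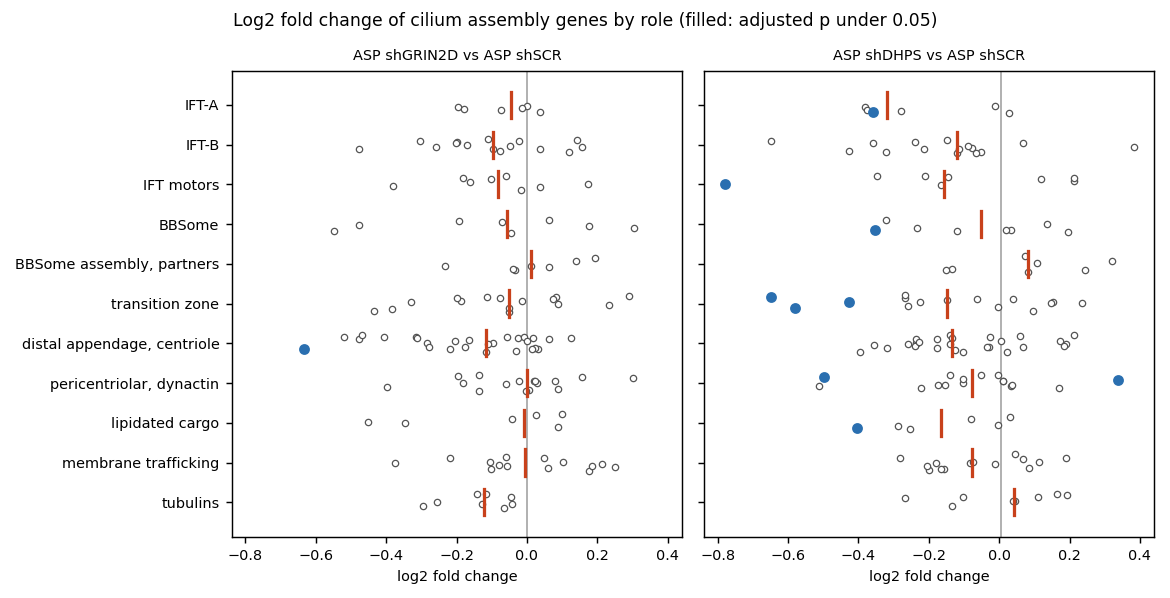
Log2 fold change of the genes above a mean of 1 CPM by role, for ASP shGRIN2D (left) and ASP shDHPS (right) against ASP shSCR. Each point is a gene, filled points are called, orange bars are the median of a role and the gray line is the median of all genes. All IFT-A genes but *Ift43* lie left of the gray line in ASP shDHPS, as do most transition zone genes.

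The sequence TCATGAA was frequent in the 3′ UTR of genes called lower in ASP shGRIN2D across the whole table. It was taken up with these data known, and 3′ UTR length was not matched between the sets compared. The shares below are a description. Among genes of 5 CPM or more, 12.8% of 9846 held it. The motif, searched on the sense strand of the longest coding GENCODE M21 transcript, stood in the 3′ UTR of 12.3% of 13994 genes and of 65 of the 139 genes called lower with an annotated 3′ UTR (46.8%). Of the 144 cilium assembly genes with an annotated 3′ UTR, 19 held it (13.2%), and of the 18 lower at an unadjusted p under 0.05, 6 did (33.3%). So did 1 of the 5 higher at that p (20%), and 5 of the 25 lower at that p in ASP shDHPS (20%). The 18 carriers above a mean of 1 CPM had a median log2 fold change of -0.20 in ASP shGRIN2D, with 15 below 0, against -0.05 and 73 of 118 without the motif. In ASP shDHPS the medians were -0.15 and -0.10. The sites of the 6 lower carriers are printed with the motif in capitals because 3 of the 4 genes next to the threshold, *Ywhag*, *Cep135* and *Rp2*, are among them (GRCm38 coordinates, strand of the gene).
*Ywhag* (chr5:135908452-135908480, - strand): tgatggaatatTCATGAAtgtgagtcatt
*Cep135* (chr5:76644702-76644730, + strand): gttcctgcaaaTCATGAAcactgacacaa
*Rp2* (chrX:20399932-20399960, + strand): gttttttaaatTCATGAAaaattaatagc
*Haus8* (chr8:71250565-71250593, - strand): ttgcttcttggTCATGAAgacagtgtcca
*Cep41* (chr6:30655298-30655326, - strand): tcactgttgatTCATGAAagattctccag
*Exoc1* (chr5:76569977-76570005, + strand): catttatctcaTCATGAAaagccttcagc
*Cep78* holds no such site. What gives the carriers their lower level was not tested.

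Most of the genes called with the *Dhps* hairpin fell. In ASP shDHPS against ASP shSCR, 10 of 146 genes were called (6.85%, against 4.22% of all genes). Of these, 8 fell (5.48%, against 2.57% of all genes) and 2 rose (1.65% of all genes were called higher). Well measured genes are called more often. Among those of 5 CPM or more on average, 9 of 129 cilium assembly genes were called (6.98%), near the 6.93% of all such genes, and 8 fell (6.20%, against 4.14%). At an unadjusted p under 0.05, 24 of these 129 were lower and 7 higher, where 1566 and 1337 of all 10224 such genes were. The median log2 fold change was -0.10, against 0.00 over all genes, and 95 of 146 genes lay below 0.

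The 8 genes that fell were *Rpgrip1l*, *Cc2d2a* and *Cep290* of the transition zone, *Dync2h1* and *Ttc21b* of IFT, *Ttc8* of the BBSome, the centrosomal *Akap9* and *Rp2* of lipidated cargo transport. *Rpgrip1l*, *Cc2d2a* and *Cep290* encode large proteins of the transition zone, and loss of any of them in humans causes ciliopathies of the Joubert and Meckel type. *Rpgrip1l* (ENSMUSG00000033282) measured 18.8, 20.99, 19.01 and 19.4 CPM in ASP shSCR and 13.1, 13.9, 12.3 and 13.1 CPM in ASP shDHPS, with a clear gap between the groups. It fell by 0.58 on the log2 scale (SE 0.12, adjusted p = 0.00795) and was called in each of the 8 fits without one library. *Cc2d2a* (ENSMUSG00000039765) measured 18.4, 28.7, 18.9 and 21.1 CPM in ASP shSCR and 12.97, 15.1, 13.1 and 14.3 CPM in ASP shDHPS. Here ASP shSCR replicate 2 stood well above its group, yet the groups did not overlap without it either. *Cc2d2a* fell by 0.65 (SE 0.15, adjusted p = 0.0144), and without that library the adjusted p was 0.0679. *Cep290* (ENSMUSG00000019971) was nearly flat in ASP shDHPS (12.3, 12.1, 12.3 and 12.5 CPM) and ranged from 13.3 to 19.4 CPM in ASP shSCR (log2 fold change -0.43, SE 0.12, adjusted p = 0.0451). Of the 16 transition zone genes, 11 lay below 0, and 4 were lower and 0 higher at an unadjusted p under 0.05. That p was reached by 1566 lower and 1337 higher genes among the 10224 of 5 CPM or more. *Cep162*, among those with the highest CPM, lay at -0.15 and was not called.

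**Figure D3:**
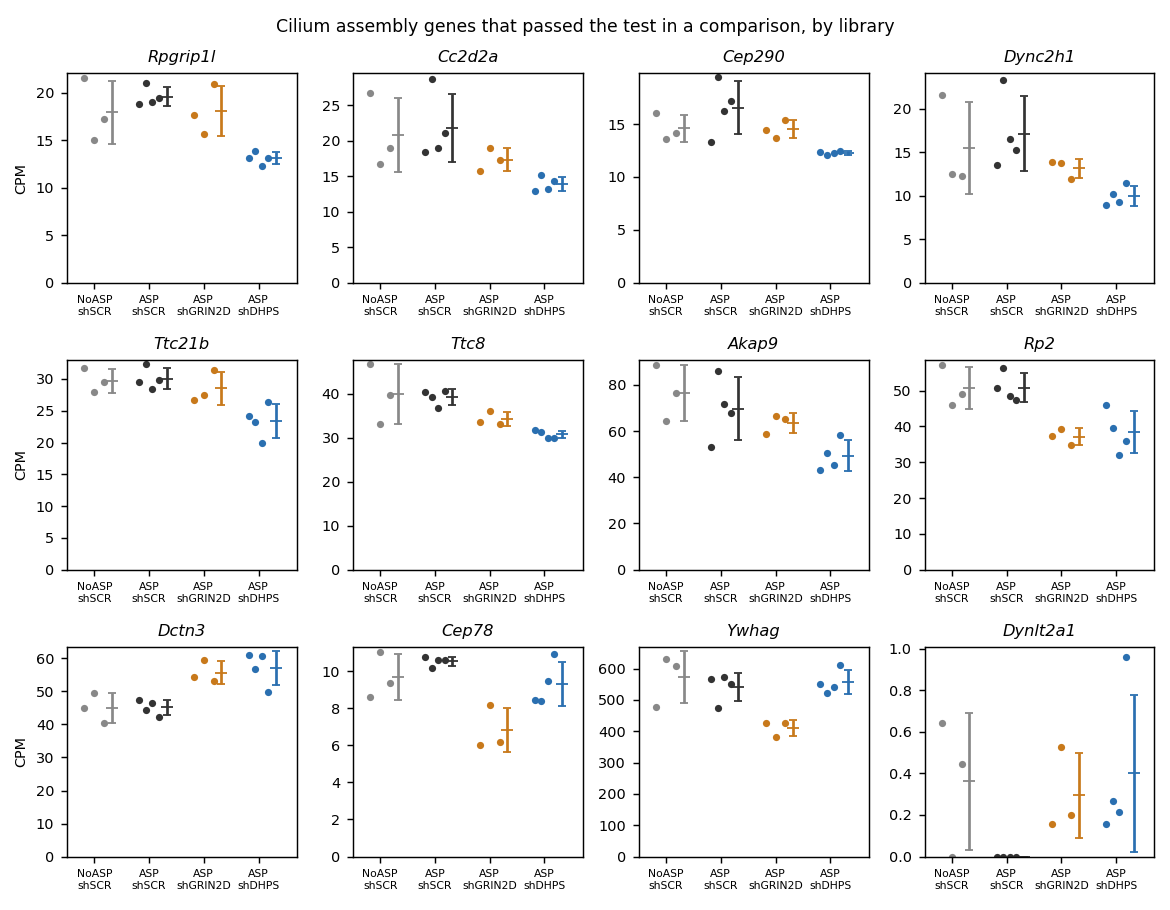
CPM by library of the 12 cilium assembly genes called in at least 1 comparison, in the 4 groups. Points are libraries, and the bars beside them give mean and SD. *Rpgrip1l*, *Cep290* and *Dync2h1* are lowest in the ASP shDHPS libraries, while *Cep78* and *Ywhag* are lowest in ASP shGRIN2D.

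In intraflagellar transport, *Dync2h1* (ENSMUSG00000047193) gave the largest fall of all genes called in the set. This gene encodes the heavy chain of dynein-2, the motor that returns IFT trains to the cell body. It measured 13.6, 23.4, 16.5 and 15.2 CPM in ASP shSCR and 8.98, 10.2, 9.34 and 11.5 CPM in ASP shDHPS, without overlap. The log2 fold change was -0.78 (SE 0.18, adjusted p = 0.0133), and it was called in 7 of 8 fits without one library, the exception being without ASP shSCR replicate 2 (adjusted p = 0.0615). *Ttc21b* (ENSMUSG00000034848), an IFT-A subunit also known as IFT139, measured 29.6, 32.4, 28.5 and 29.8 CPM in ASP shSCR and 24.1, 23.2, 19.98 and 26.4 CPM in ASP shDHPS. The groups were apart, and the gene fell by 0.36 (SE 0.10, adjusted p = 0.0479).

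The rest of the transport machinery leaned the same way without passing the test. Of the 30 IFT genes, 23 lay below 0 with a median of -0.15, and 9 were lower and 3 higher at an unadjusted p under 0.05. In the whole table, 1566 of the 10224 genes of 5 CPM or more were lower and 1337 higher at that p. IFT-A had the lowest median, -0.32 over 6 genes, with *Ift140* at -0.38 (SE 0.15), *Wdr19* at -0.37 (SE 0.23) and *Ift122* at -0.28 (SE 0.13), and with *Ift43* and *Wdr35* at 0.03 and -0.01. Of the 15 IFT-B genes, 13 lay below 0. *Ift172* came closest, at 22.5, 21.7, 20.5 and 19.8 CPM in ASP shDHPS against 30.7, 33.4, 22.9 and 26.3 CPM in ASP shSCR (log2 fold change -0.43, SE 0.12, adjusted p = 0.0519). *Ift74* (-0.32), *Ift88* (-0.36), *Ift52* (-0.21) and *Ttc30b* (-0.65) had an unadjusted p under 0.05. *Ift46*, *Ift57*, *Ift80*, *Ift81*, *Ift22*, *Traf3ip1*, *Cluap1* and *Ttc26* lay between -0.24 and -0.05, and *Ift27* at 0.07.

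*Ift20* lay on the other side. It measured 28.7, 27.5, 29.6 and 22.1 CPM in ASP shDHPS and 22.3, 16.1, 23.8 and 20.4 CPM in ASP shSCR, where the groups overlapped (log2 fold change 0.38, SE 0.13, adjusted p = 0.0980). Among the motor genes, the dynein light chains *Dynlrb1*, *Dynlt2b* and *Dynll1* lay at 0.21, 0.21 and 0.12, while *Kif3a*, *Dync2i1*, *Dync2i2* and *Dync2li1* lay between -0.35 and -0.15. *Kif17* was too rarely counted for its log2 fold change of 1.48 (SE 0.58) to be read. No light chain was called.

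In the BBSome, *Ttc8* (ENSMUSG00000021013), also known as BBS8, was called alone. It measured 40.5, 39.3, 36.8 and 40.6 CPM in ASP shSCR and 31.7, 31.3, 30.03 and 30.1 CPM in ASP shDHPS, with little spread in either group. It fell by 0.35 (SE 0.10, adjusted p = 0.0456). The other 7 subunits lay between -0.32 (*Bbs2*) and 0.20 (*Bbs7*), and the BBSome median was -0.05. The chaperonin-like assembly factors *Mkks* and *Bbs12* lay at 0.24 and 0.32 and were not called. Of the partners with the highest CPM, *Smo* lay at -0.15 and *Lztfl1* at 0.11.

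At the centrosome, *Akap9* (ENSMUSG00000040407), the giant anchor that ties protein kinase A and microtubule nucleation to the centrosome and Golgi, fell by 0.50 (SE 0.13, adjusted p = 0.0274). It measured 53.2, 86.0, 71.9 and 67.7 CPM in ASP shSCR and 43.3, 50.5, 45.4 and 58.1 CPM in ASP shDHPS, groups that overlapped. *Dctn3* (ENSMUSG00000028447) rose by 0.34 (SE 0.09, adjusted p = 0.0418), from 47.5, 44.4, 46.5 and 42.3 CPM in ASP shSCR to 61.1, 56.8, 60.8 and 49.8 CPM in ASP shDHPS. It is the p24 subunit of dynactin, which links dynein to its cargo, and it lay at 54.3, 59.7 and 53.1 CPM in ASP shGRIN2D (log2 fold change 0.30, SE 0.10, adjusted p = 0.207). The other X-box genes lay between -0.27 (*Tctn1*) and 0.20 (*Bbs7*) in ASP shDHPS and none was called (edgeR quasi-likelihood test). The 2 centrosomal genes with the highest CPM, *Ywhag* and *Ppp2r1a*, lay at 0.04 and -0.05.

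*Rp2* was low with either hairpin and was called in ASP shDHPS. It measured 50.8, 56.4, 48.6 and 47.3 CPM in ASP shSCR, 37.4, 39.3 and 34.7 CPM in ASP shGRIN2D and 45.9, 39.4, 32.1 and 36.0 CPM in ASP shDHPS. Every hairpin library lay below every ASP shSCR library. The log2 fold changes were -0.45 (SE 0.12, adjusted p = 0.0701) in ASP shGRIN2D and -0.40 (SE 0.11, adjusted p = 0.0340) in ASP shDHPS, and the direct comparison of the hairpins gave 0.05 (SE 0.12, adjusted p = 0.911). Both comparisons share the 4 ASP shSCR libraries. *Unc119b*, which carries lipidated proteins to the cilium and has the highest CPM of its role, lay at 0.00 in ASP shDHPS.

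The second gene called higher was *Dynlt2a1*, with 0 counts in every ASP shSCR library and 29 counts over the ASP shDHPS libraries, at least 10-fold higher when 3 counts over the ASP shSCR group are taken as the limit. The summed counts of *Dynlt2a1* and its near-identical copy *Dynlt2a2* (11 to 50 per library) did not differ (log2 fold change 0.04, SE 0.33, adjusted p = 0.985), so the call is uncertain. In the remaining roles no gene was called in ASP shDHPS. Centriole and distal appendage genes had a median of -0.13 with 19 of 27 below 0 (3 lower and 1 higher at an unadjusted p under 0.05), membrane trafficking genes a median of -0.07 and tubulins of 0.04. *Asap1* and *Arf4*, the trafficking genes with the highest CPM, lay at -0.08 and 0.07, and *Tuba1b* and *Tubb4b* at 0.04 each.

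ASP shSCR replicate 2 carried much of the count. It was the highest of the 4 ASP shSCR libraries for 7 of the 8 genes that fell, and for 65 of the 138 genes above 1 CPM (the lowest for 33). Without it 1 of the 10 genes was called, *Rpgrip1l*, no IFT or BBSome gene was called (3 were with it), and the median moved from -0.10 to -0.06. The median log2 deviation of IFT genes from their means over all libraries was 0.253 in it and -0.00305 to 0.0748 in the other ASP shSCR libraries. For transition zone genes these values were 0.218 and -0.0358 to 0.128. The count was also 5, 4 and 3 without ASP shDHPS replicates 1, 2 and 3, and 6 without ASP shSCR replicate 1 or 4. *Cep290*, *Ttc8*, *Ttc21b* and *Dctn3* each kept their call in 1 of the 8 fits without one library, *Akap9* in 2, *Rp2* in 3 and *Cc2d2a* in 6. Over these fits the adjusted p reached 0.184 for *Cep290*, 0.119 for *Ttc8*, 0.168 for *Ttc21b*, 0.131 for *Dctn3*, 0.116 for *Akap9* and 0.137 for *Rp2*.

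Most of the genes that fell have long transcripts. Across the 137 genes with at least 1 CPM and a known length, the log2 fold change in ASP shDHPS and the log2 length of the longest coding transcript correlated with Pearson r = -0.44, and across 11949 genes of the table with r = -0.25. These are correlations across genes of the same libraries, given as a description. Of 28 genes under 2000 nt, 0 were called lower and the median was 0.03. Of 62 genes of 2000 to 4000 nt, 1 was called lower (median -0.09), of 28 genes of 4000 to 6000 nt 3 (median -0.17), and of 19 longer genes 4 (median -0.23). The medians of all genes in the same ranges were 0.09, 0.02, -0.06 and -0.17, each above that of the cilium genes. Of all genes above 1 CPM in these ranges, 1.64%, 3.22%, 4.79% and 9.85% were called lower. The shares of the cilium genes were 0%, 1.61%, 10.7% and 21.1%, each resting on few genes. *Dync2h1* (14264 nt), *Akap9* (13123 nt), *Cep290* (8211 nt) and *Rpgrip1l* (7009 nt) are among the longest, and *Dctn3* (973 nt) among the shortest.

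**Figure D4:**
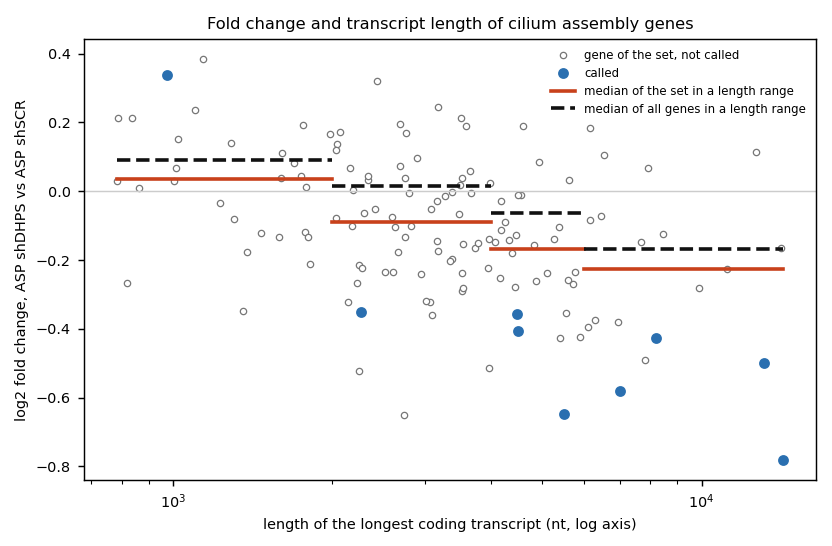
Log2 fold change in ASP shDHPS against ASP shSCR and length of the longest coding transcript (log axis) for 137 cilium assembly genes. Filled points are called. Horizontal lines give the median of these genes (orange) and of all genes (black, dashed) in 4 length ranges, and both step down with length.

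When each library was corrected for GC content and transcript length, 10 of the 146 genes were again called, but not the same ones. Calls over all 19525 genes rose from 824 to 1170 with this correction. *Rpgrip1l* (log2 fold change -0.45, adjusted p = 0.0134), *Cc2d2a* (-0.55, adjusted p = 0.0155), *Dync2h1* (-0.51, adjusted p = 0.0346), *Ttc8*, *Ttc21b*, *Rp2* and *Dynlt2a1* were kept. *Akap9* (-0.23, adjusted p = 0.111), *Cep290* (-0.28, adjusted p = 0.127) and *Dctn3* (0.22, adjusted p = 0.0526) were lost, and *B9d1* of the transition zone, *Prkaca*, a catalytic subunit of protein kinase A, and *Exoc5* of the exocyst entered. The correlation with length among the cilium genes was then -0.02, and their median -0.09. What makes longer transcripts lower in these libraries was not tested.

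To see where the hairpins differ, ASP shDHPS was compared with ASP shGRIN2D directly. One of the 146 genes was called, *Ywhag* (0.44, SE 0.10, adjusted p = 0.0197), where 2.82% of all genes were. Its ASP shDHPS libraries (550, 521, 542 and 611 CPM) lay with the controls and its ASP shGRIN2D libraries below both. Leaving out any ASP shGRIN2D library ended the call (adjusted p = 0.0762 for replicate 1, 0.127 for replicate 2 and 0.0616 for replicate 3). The genes next in order were *Bbs12* (0.55, adjusted p = 0.0558), *Tubb6* (0.32, adjusted p = 0.0560), *Rpgrip1l* (-0.47, adjusted p = 0.0574) and *Haus8* (0.43, adjusted p = 0.0621). *Rpgrip1l* measured 17.7, 15.7 and 20.9 CPM in ASP shGRIN2D, above every ASP shDHPS library. No IFT or BBSome gene was called (edgeR quasi-likelihood test, and none by the DESeq2 Wald test), and 0 were higher and 3 lower at an unadjusted p under 0.05. At that p, 1006 of the 10224 genes of 5 CPM or more were higher and 1090 lower. The hairpins differed by -0.40 (SE 0.19, adjusted p = 0.338) in *Dync2h1* and by -0.32 (SE 0.16, adjusted p = 0.365) in *Cc2d2a*, so their changes in ASP shDHPS are not shown to differ from the values in ASP shGRIN2D. Against ASP shSCR, *Dync2h1* lay there at -0.38 (SE 0.19, adjusted p = 0.510) and *Cc2d2a* at -0.33 (SE 0.16, adjusted p = 0.490).

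The Hedgehog pathway, which signals through the cilium, was followed in 18 measured genes. In ASP shDHPS 3 of the 18 fell (16.7%, against 2.57% of all genes and 4.14% of those of 5 CPM or more) and none rose. Of these, *Ptch1* (10383 nt) and *Hhip* (9074 nt) have long transcripts. Among all genes over 6000 nt and above a mean of 1 CPM, 9.85% were called lower. At an unadjusted p under 0.05, 8 of the 18 were lower and 1 higher, where 2011 and 1758 of 19525 genes were, and their median was -0.25. The higher gene was *Gas1* (log2 fold change 1.39, SE 0.65), which had at most 11 counts in any library. *Ptch1*, the Hedgehog receptor and itself a target of the pathway, measured 18.6, 25.4, 19.01 and 18.5 CPM in ASP shSCR and 11.5, 14.5, 13.7 and 14.4 CPM in ASP shDHPS, without overlap (log2 fold change -0.59, SE 0.13, adjusted p = 0.0113, or 0.0527 without ASP shSCR replicate 2). *Hhip*, a Hedgehog-binding inhibitor and likewise a known target, measured 37.4, 48.7, 34.5 and 36.1 CPM in ASP shSCR, 27.4, 25.7, 15.8 and 22.96 CPM in ASP shDHPS and 23.5, 25.6 and 16.5 CPM in ASP shGRIN2D. It lay below the controls in every hairpin library, by -0.77 (SE 0.17, adjusted p = 0.0106) in ASP shDHPS and -0.84 (SE 0.19, adjusted p = 0.0239) in ASP shGRIN2D. Its 3′ UTR holds TCATGAA at 4 places, and its call there was lost when replicate 1 or 3 of that group or ASP shSCR replicate 2 was left out (adjusted p = 0.0833, 0.210 and 0.0522). *Evc*, which relays the signal at the cilium base, fell by 0.35 (SE 0.10, adjusted p = 0.0457) and kept its call in 1 of 8 fits without one library. With GC content and transcript length corrected, *Ptch1* (-0.34, adjusted p = 0.0567) and *Evc* (-0.21, adjusted p = 0.242) were not called, while *Hhip* was (-0.60, adjusted p = 0.0146). *Gli1*, a direct target, was rare (0.530 CPM, at most 18 counts). Its log2 fold change was 0.61 (SE 0.57) in ASP shDHPS and 0.83 (SE 0.61) in ASP shGRIN2D, neither called. The transcription factor gene *Gli3* lay at -0.34 in ASP shDHPS and was not called.

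Among 18 genes of cilium disassembly and length control, *Ccp110* alone was called in ASP shGRIN2D (5.56%, against 1.16% of all genes). This gene caps the mother centriole and holds back cilium growth, and it is among the E2F targets left out of the 146. It measured 14.1, 12.6, 14.9 and 15.4 CPM in ASP shSCR and 8.09, 7.22 and 8.87 CPM in ASP shGRIN2D, far from overlap, and 13.9, 12.5, 13.8 and 11.9 CPM in ASP shDHPS. It fell by 0.82 in ASP shGRIN2D (SE 0.13, adjusted p = 0.00165) and was called in all 7 fits without one library. Its 3′ UTR holds TCATGAA at 2 places. Among 35 genes of motile cilia and the axoneme, *Odf3l1* alone was called in ASP shGRIN2D (2.86%, against the same 1.16%). It rose from 11.8, 8.41, 10.3 and 12.2 CPM in ASP shSCR to 34.1, 29.9 and 31.7 CPM in ASP shGRIN2D (log2 fold change 1.58, SE 0.14, adjusted p = 8.81e-07), and ASP shDHPS lay with the controls (8.98 to 13.6 CPM). *Odf3l1* belongs to a family of outer dense fiber proteins of sperm tails.

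Of 12 ciliary transcription factor genes none was called in any comparison (edgeR quasi-likelihood test). At an unadjusted p under 0.05, 1 was lower in ASP shGRIN2D (*Myb*) and 2 in ASP shDHPS (*Rfx1* at -0.34 and *Rfx7* at -0.25). Those with the highest CPM, *Tfdp1* and *E2f4*, lay at 0.08 each in ASP shDHPS, and *Foxj1*, the master factor of motile cilia, had a mean of 0.552 CPM. None of 13 ciliary membrane genes was called in either hairpin comparison. At an unadjusted p under 0.05, 4 were lower and 0 higher in ASP shDHPS, where 2011 and 1758 of 19525 genes were. *Pkd2* lay at -0.33 (SE 0.12, adjusted p = 0.116) and *Arl2bp*, the one with the highest CPM, at 0.01. Of the 15 proliferation markers, *Mki67* fell in ASP shDHPS (-0.51, SE 0.13, adjusted p = 0.0231) with overlapping groups and kept its call in 4 of 8 fits without one library (adjusted p up to 0.0822, without ASP shSCR replicate 2). With GC content and length corrected it lay at -0.28 (adjusted p = 0.0496). *Mcm3* fell in ASP shGRIN2D (-0.41, SE 0.09, adjusted p = 0.0242), where it kept its call in 1 of 7 fits without one library. Each was the only marker called there (6.67%, against 4.22% and 1.16% of all genes). At an unadjusted p under 0.05, 3 of the 15 markers were higher and 2 lower in ASP shDHPS, with a median of 0.01. In ASP shGRIN2D 0 were higher and 7 lower at that p, with a median of -0.19. There 910 of 19525 genes were higher and 1130 lower. The summed level of these markers in ASP shDHPS (3386 to 3764 CPM) overlapped that in ASP shSCR. Their part in the changes of cilium genes was not tested.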

How the data were processed

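RNA-seq libraries (14, in 4 groups) were made from cytosolic lysates with a stranded mRNA kit. Per the submitters' processing notes and the study's methods, reads were processed with Trim Galore 0.6.6, FastQC 0.11.9, STAR 2.6.1 and Salmon 1.4.0 on GRCm39, and the authors rounded Salmon estimates to the deposited counts per gene. The authors had removed genes without expression in at least 2 of 4 replicates of at least 1 condition. Deposited tables of the authors' own DESeq2 1.34.0 comparisons and gene set tests were not used.

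Counts were fitted with edgeR 4.0.16 (quasi-likelihood test, TMM, group as the only term, all 14 libraries, 19525 genes, no further filter; R 4.3.3, limma 3.58.1), with Benjamini-Hochberg adjustment over all genes and a threshold of 0.05. Libraries held 12731123 to 23231378 counts, which limits genes of few counts most. The script was tested on simulated data. Lengths, GC content and 3′ UTRs came from GENCODE M21 and promoters from RefSeq, both GRCm38, matched by gene. The labels do not say what a replicate is. By the study's methods the polysome fractions came from 4 separate spheroid pellets in each condition and the RNA here from the input of those gradients, so p-values measure the spread between pellets of 1 line. Replicate pairs within a group differed by more than counting noise (chi-square per degree of freedom 7.69 to 41.8 over 18 pairs).

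The genes and lists were chosen with earlier results of these data known. Named were all IFT and BBSome genes, the called genes (at most 10 in each direction), with fewer than 5 calls the 5 genes of smallest p, and the 2 genes of highest CPM in a role or list, some of which are not reported here. Other names are said to be chosen after their values were seen or are values beside a result. Replicate numbers paired the shSCR libraries, since same-numbered libraries deviated together (r = 0.514, 0.287 and 0.203), but not those of the other comparisons. Alternatives were the DESeq2 1.42.0 Wald test, RLE or library size scaling, filterByExpr, a robust prior, the compared groups alone, a replicate block, a test against 1.5-fold, correction for GC content and length, the whole Reactome set, and each library left out. Figures were drawn with matplotlib 3.10.9 in Python 3.11.15.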

Additional observations from a re-analysis of the deposited data

Results flagged for a closer look

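Within groups of 4, 5 of 110 group values checked over 55 genes had 1 library far from the others (4.55%), and chance gives about 1 in 20. These were *Dynlt2a1* in ASP shDHPS replicate 4 (0.961 CPM, others 0.158 to 0.266 CPM), *Bbs4* in ASP shSCR replicate 4 (11.8 CPM, others 8.58 to 8.88 CPM) and *Ift52* in ASP shSCR replicate 3 (34.8 CPM, others 39.5 to 39.6 CPM). *Kif3a* (42.1 CPM, others 31.6 to 32.9 CPM) and *Ptch1* (25.4 CPM, others 18.5 to 19.01 CPM) stood high in ASP shSCR replicate 2.

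The hairpins differed in 5 of the genes examined when ASP shDHPS was tested against ASP shGRIN2D directly (edgeR quasi-likelihood test). The genes examined were the IFT and BBSome genes and those called in any comparison, this one included. The count of 5 is therefore no rate to set beside the 2.82% of all genes called. The log2 difference was 0.435 for *Ywhag* (adjusted p = 0.0197), 0.695 for *Ccp110* (adjusted p = 0.00416), -1.49 for *Odf3l1* (adjusted p = 1.92e-06), 0.426 for *Mcm3* (adjusted p = 0.00972) and 0.427 for *Ccnb1* (adjusted p = 0.0133). No explanation for these values was tested.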

How the results depend on the processing

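Between ASP shSCR and NoASP shSCR 0 of the 146 genes were called under every alternative run, the replicate block that pairs same-numbered libraries included. Their median log2 fold change lay between -0.012 and 0.0601 with one library left out. In ASP shGRIN2D against ASP shSCR, the count of 1 became 7 with the DESeq2 Wald test, 2 with library size alone, 2 with a robust prior, 3 with only the compared groups, 0 against 1.5-fold, 4 with GC content and length corrected, 2 in the whole Reactome set, 0 without genes holding TCATGAA in the 3′ UTR (chosen after seeing the data) and 0 to 1 with one library left out. The IFT and BBSome count of 0 became 1 with DESeq2 and 0 to 1 with one library left out. In ASP shDHPS against ASP shSCR, the count of 10 became 6 with only the compared groups, 0 against 1.5-fold, 3 without ASP shSCR replicate 2 and ASP shDHPS replicate 1 (chosen after seeing the data) and 1 to 8 with one library left out. The IFT and BBSome count of 3 became 5, 1, 0, 0 and 0 to 3 with DESeq2, only the compared groups, 1.5-fold, that pair left out and one library left out. The median of -0.10 became -0.0592 without that pair and -0.123 to -0.0621 with one library left out. In ASP shDHPS against ASP shGRIN2D, the count of 1 became 6 with DESeq2, 3 with library size alone, 5 with filterByExpr (13421 genes kept), 2 with a robust prior, 5 with only the compared groups, 0 against 1.5-fold, 4 with GC content and length corrected, 3 in the whole set and 0 to 2 with one library left out. No gene that was called, or was among the 5 of smallest p where fewer than 5 were called, reversed its direction. Apart from these, the count in ASP shDHPS was 10 to 14 under the other alternatives without a block. With GC content and length corrected, 424 of all 19525 genes were called in ASP shGRIN2D, 1170 in ASP shDHPS and 820 between the hairpins. For the other alternatives calls over all genes were not counted, so their counts stand without that share. The causes were not tested.

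Outside the shSCR groups the libraries share only a replicate number, with correlations of -0.117 to 0.258. With that number as a block the counts were 8 (IFT and BBSome 1) in ASP shGRIN2D, 19 (8) in ASP shDHPS and 11 between the hairpins, and with GC content and length corrected as well 14 (2), 21 (7) and 11 (1). Calls over all genes were not counted with a block. Whether the higher counts are particular to the cilium assembly genes is therefore not known.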
